A study of Homo sapiens with 66 samples.

Results

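The response of KBM7 cells to degradation of the Mediator subunit MED1 was read from 6 of the 66 libraries of the series: 3 of the MED1-dTAG line treated with 500 nM dTAG7 for 6 h and 3 of the same line treated with DMSO for 6 h. They were chosen by line and treatment as labelled, not by any measured value. KBM7 is a near-haploid human line from a chronic myeloid leukaemia. The MED1-dTAG genotype carries a degradation tag on MED1, and dTAG7 is a bifunctional molecule that brings a dTAG-tagged protein to the ubiquitin ligase receptor cereblon for destruction by the proteasome. Wild-type KBM7 cells, which have no tagged protein, were treated with dTAG7 or DMSO at the same dose and time (3 libraries each), and lines tagged on MED14, MED10, MED6, MED28, MED12, MED26 or MED31 were treated in the same way (3 libraries an arm). Whether the MED1 line is a single clone is not given in the sources used here, and the replicates are separate wells. The p-values therefore cover only well-to-well spread, which may be technical.

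Mediator is the large complex that passes signals from DNA-bound transcription factors to RNA polymerase II. MED1 belongs to its middle module and is known above all as the subunit that nuclear receptors such as the thyroid hormone, vitamin D and glucocorticoid receptors contact through short leucine-rich motifs. It has also been described as a partner of GATA1 in red cell development, and it gathers at the super-enhancers of genes that define a cell's identity. MED14, by contrast, is the scaffold that joins the modules.

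No gene passed an adjusted p of 0.05 when the MED1 arms were compared in the fit over all 66 libraries (edgeR quasi-likelihood, Benjamini-Hochberg, spike-in scale; 0 of 12515 genes tested; background 0.0%; lowest adjusted p = 1). Unadjusted p was under 0.05 for 394 genes, 3.15% of those tested, and DESeq2 and limma-voom also called 0. A fit on the 6 MED1 libraries alone called 17 of 10767 genes (0.158%), of which 12 fell (0.111%) and 5 rose (0.0464%). The 12 that fell were MYC, SATB1, NRIP1, IKZF2, BCL11A, APEX1, TXN, GALNT18, ZFP36L2, LYAR, ALKAL2 and ANGPT1. The 5 that rose were DUSP6, H1FX, SUN2, CLK3 and SLC2A3. All 17 estimates lay within 2-fold.

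The fits differ in the spread against which a gene is judged. Over all libraries the biological coefficient of variation was 11.5%, whereas it was 6.18% in the 6 MED1 libraries and 10.1% in the 6 wild-type libraries. In the 6-library fit edgeR found no variation in spread between genes beyond the trend with abundance, so no gene was judged against a spread of its own. The fit also depended on single libraries and on the tool. It called 8 genes without MED1 DMSO replicate A, 7 without MED1 dTAG7 replicate A and 9 without MED1 dTAG7 replicate B, and the range over all 6 such fits was 7 to 14. DESeq2 on the 6 libraries called 6 genes, namely SATB1, NRIP1, MYC, DUSP6, BCL11A and IKZF2. MYC, SATB1, DUSP6, NRIP1 and BCL11A were called in every one of the 6 fits that left out a library.

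The promoters of SATB1, NRIP1 and IKZF2 are shown as examples of genes that fell and had lower values in every other Mediator line; BCL11A, among others, meets the same reason, and IKZF2 is shown for the letters marked in it. Each is the 250 bases before the RefSeq start on GRCh38.p14, 5′ to 3′ on the gene's strand, in lower case. Capitals mark the letters TGTGGT, the core bound by RUNX factors, searched on both strands. The SATB1 window is chr3:18445593-18445842, the NRIP1 window chr21:15065937-15066186 and the IKZF2 window chr2:213152457-213152706, all on the minus strand.
SATB1: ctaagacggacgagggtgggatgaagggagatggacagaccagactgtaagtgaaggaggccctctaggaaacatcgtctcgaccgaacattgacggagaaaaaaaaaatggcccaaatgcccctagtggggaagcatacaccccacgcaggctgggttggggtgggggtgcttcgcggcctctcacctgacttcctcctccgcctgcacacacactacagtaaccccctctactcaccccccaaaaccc
NRIP1: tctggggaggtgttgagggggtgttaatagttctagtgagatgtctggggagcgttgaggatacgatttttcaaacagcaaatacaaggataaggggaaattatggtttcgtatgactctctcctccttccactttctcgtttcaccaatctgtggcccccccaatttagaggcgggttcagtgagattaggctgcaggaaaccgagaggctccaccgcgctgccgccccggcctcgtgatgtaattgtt
IKZF2: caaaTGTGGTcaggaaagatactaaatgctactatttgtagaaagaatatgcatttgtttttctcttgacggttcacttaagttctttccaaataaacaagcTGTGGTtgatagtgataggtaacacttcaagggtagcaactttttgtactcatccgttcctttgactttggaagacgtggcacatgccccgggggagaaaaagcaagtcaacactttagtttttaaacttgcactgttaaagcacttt
RefSeq windows were found for 8 of the 12 genes that fell. The GATA letters AGATAA and the nuclear receptor half-site AGGTCA were in 0 of these 8, beside 9.37% and 12.1% of all 27305 windows of the same length. The E-box CACGTG, bound by MYC with its partner MAX, was in 1 (APEX1) beside 6.49%, and TATAAA was in 1 (TXN) beside 11.1%. The RUNX core was in 2 (IKZF2 and BCL11A) beside 10.9%, and it was added after the windows had been read. In TXN the matches to TATAAA on the 2 strands overlap each other, and no other matches overlap in these windows. A match is a run of letters and not a measured binding site.

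The 6 MED1 libraries held 2357292 to 3917518 counts over genes, and spike-ins took 0.724% to 0.787% of all counts. The log2 ratio of gene counts to spike-in counts was 7.02 ± 0.07 (SD, n = 3) in DMSO and 7.03 ± 0.02 with dTAG7. The difference was 0.011 (95% interval -0.104 to 0.126; exact two-sided permutation p = 1, with 0.1 the smallest possible), which puts total transcript output per spike-in at 101% of DMSO with limits of 93.0% and 109%. Leaving out DMSO replicate A gave 0.051, and leaving out DMSO replicate B gave -0.009. In wild-type cells the same difference was 0.086 (-0.111 to 0.283; exact p = 0.3). A change in RNA per cell and a change in the number of cells cannot be told apart in such ratios.

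Markers of the labelled lineage were sparse in these cells. Of 15 myeloid markers 5 were in the table, led by ANPEP and CD33, and MPO, the myeloperoxidase of granules, stood at 1.06 CPM in DMSO. Of 18 lymphoid markers 13 were in the table, led by PAX5, the B-cell identity factor, with a mean of 69.4 CPM in DMSO. Erythroid markers (3 of 11) and megakaryocyte markers (1 of 12) were all under 5 CPM. The summed myeloid markers were 109 to 124 CPM in DMSO and 136 to 139 CPM with dTAG7, of which ANPEP, a surface peptidase, made up most. Taken singly, 3 of the 5 myeloid markers tested had a negative value and 2 a positive one, with a median log2 fold change of -0.06. The arms did not overlap for 1 higher and 0 lower members, against 6.26% and 5.3% of all genes. The lymphoid sum was 156 to 191 CPM in DMSO and 168 to 206 CPM with dTAG7. The part of these markers in the gene changes was not tested.

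The dTAG system removes the protein, which these libraries do not measure, so MED1 mRNA does not check the labels. Its level was 461, 379 and 383 CPM in DMSO and 382, 411 and 394 CPM with dTAG7. The arms overlapped, and the log2 fold change was -0.04 ± 0.13 (SE; 95% interval -0.30 to 0.22). MED1 lies on chr17:39404285-39451286 (GRCh38, minus strand). Of 33 Mediator subunit genes, 16 had a negative and 17 a positive value, with a median of 0.01 beside 0.01 over all genes tested, and 0 were called in either fit. The arms did not overlap for 1 lower and 7 higher subunit genes, against a background of 5.3% lower and 6.26% higher. CDK19, the paralog of the Mediator kinase CDK8, stood at 65.9, 66.9 and 53 CPM in DMSO and at 84.8, 75.1 and 90.8 CPM with dTAG7. Its value was 0.42 ± 0.14 in the 66-library fit (adjusted p = 0.16 in the 6-library fit), and it was 0.28 ± 0.14 in wild-type cells with dTAG7. MED11, of the head module, had the lowest value, -0.66 ± 0.34, at only 7.58 CPM with dTAG7.

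The falls with the lowest p were in transcription regulators. MYC, the transcription factor that drives ribosome and metabolic genes, was at 117, 104 and 108 CPM in DMSO and at 66.9, 65.2 and 74.0 CPM with dTAG7. Every dTAG7 library was below every DMSO library, and the log2 fold change was -0.68 ± 0.11 in the 6-library fit (edgeR adjusted p = 1.36e-05). In the 66-library fit, with its wider spread for MYC, it was -0.68 ± 0.28 (adjusted p = 1). Wild-type cells had 92.1, 164 and 131 CPM in DMSO and 175, 83.9 and 121 CPM with dTAG7, with overlapping arms and a value of -0.01 ± 0.27.

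SATB1, a chromatin organiser of blood cells (chr3:18345387-18445588), was at 338, 324 and 347 CPM in DMSO and at 232, 229 and 262 CPM with dTAG7. The arms were apart by more than their own spread, with a log2 fold change of -0.48 ± 0.08 in the 6-library fit (edgeR adjusted p = 1.55e-05). It was the 1 gene called in the 66-library fit on TMM scale (0.00776% of 12892 genes; adjusted p = 0.0022). NRIP1, a corepressor that nuclear receptors recruit (chr21:14961235-15065936), was at 341, 313 and 304 CPM in DMSO and at 230, 231 and 235 CPM with dTAG7. The dTAG7 wells lay close together, well below the DMSO wells, at -0.46 ± 0.08 (adjusted p = 3.81e-05). BCL11A, a zinc finger repressor of fetal globin genes, was at 249, 221 and 241 CPM in DMSO and at 169, 171 and 174 CPM with dTAG7. Its value was -0.47 ± 0.09 (adjusted p = 0.00014). IKZF2, the Ikaros-family factor Helios, was at 279, 239 and 247 CPM in DMSO and at 163, 185 and 206 CPM with dTAG7. Its arms did not overlap either, at -0.47 ± 0.09 (adjusted p = 6.5e-05), but without dTAG7 replicate A its adjusted p was 0.11.

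**Figure D1:**
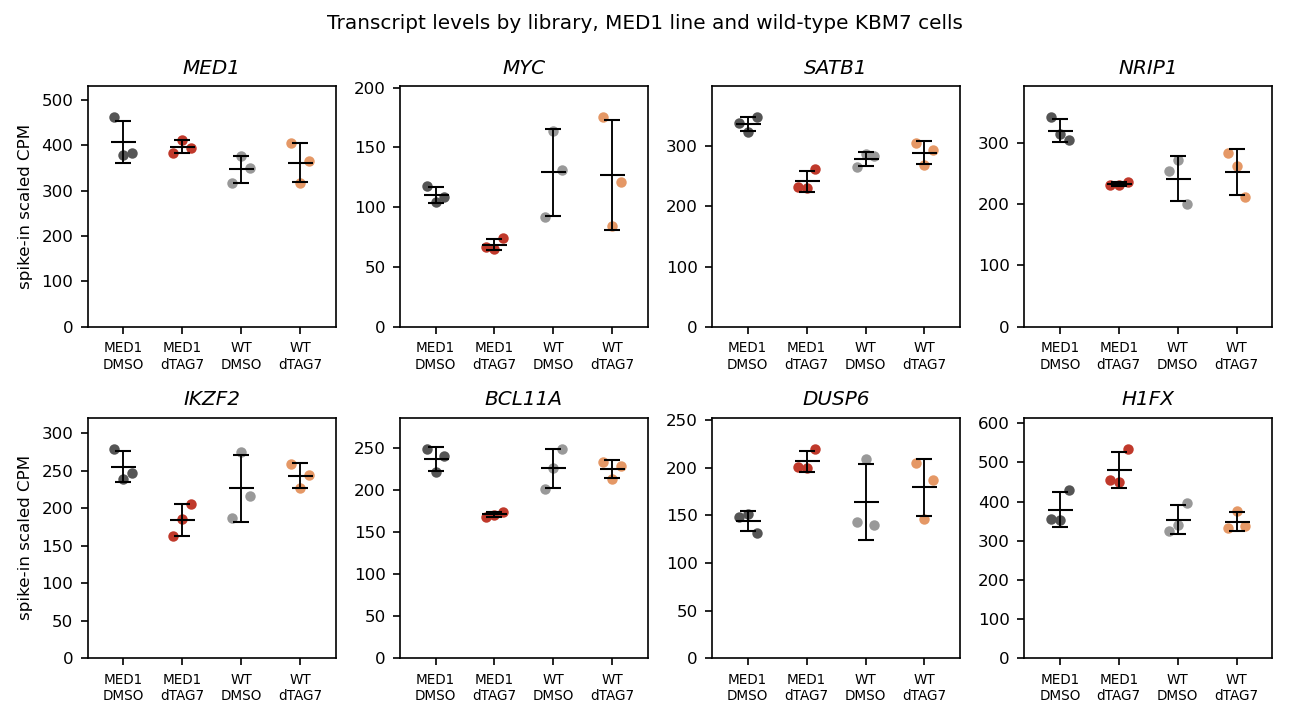
Spike-in scaled CPM (vertical axes, from 0) of MED1, the 5 genes with the lowest p among those that fell and 2 of those that rose, in the MED1 line and in wild-type (WT) cells; each dot is a library, and bars give the mean and SD of 3. The dTAG7 dots of MYC lie at 65.2 to 74.0, below all DMSO dots of the MED1 line, while the wild-type arms overlap.

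The other genes that fell are of several kinds. APEX1, a DNA repair endonuclease, had 285, 230 and 251 CPM in DMSO and 174, 190 and 207 CPM with dTAG7 (-0.43, adjusted p = 0.00076). It was not called without DMSO replicate A (0.14) or dTAG7 replicate A (0.18). LYAR is a nucleolar protein of ribosome biogenesis, ZFP36L2 binds AU-rich mRNAs and promotes their decay, and ANGPT1 is the ligand of the receptor TIE2. They fell by 0.37, 0.35 and 0.31 on the log2 scale, with adjusted p of 0.041, 0.023 and 0.041. These calls were lost in most of the fits that left out a library: of 6, LYAR was called only without DMSO replicate B (0.0045), ANGPT1 only without DMSO replicate C (0.022), and ZFP36L2 only without DMSO replicate B (0.017) or dTAG7 replicate C (0.029). LYAR stood at -0.24 without DMSO replicate A, and limma-voom on the 6 libraries did not call it (0.063). GALNT18, a glycosyltransferase, and ALKAL2, a ligand of the kinase ALK, fell by 0.82 and 0.83 at under 40 CPM. GALNT18 was called in those fits only without DMSO replicate C (0.0017) or dTAG7 replicate B (0.011), and ALKAL2 only without DMSO replicate C (0.046) or dTAG7 replicate C (0.029). TXN, the redox protein thioredoxin, was the gene among the 17 whose arms overlapped: 269, 180 and 198 CPM in DMSO against 173, 141 and 183 CPM with dTAG7. Its adjusted p was 0.62 without DMSO replicate A, where its value was -0.18, 0.060 without dTAG7 replicate A and 0.58 without dTAG7 replicate B.

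Among the genes that rose, DUSP6, the phosphatase that is induced by ERK and switches it off, had the lowest p. It was at 148, 152 and 132 CPM in DMSO and at 201, 199.7 and 220 CPM with dTAG7. All 3 dTAG7 wells were higher than all 3 DMSO wells, with a log2 fold change of 0.51 ± 0.09 in the 6-library fit (adjusted p = 3.81e-05). In wild-type cells DUSP6 was at 139 to 210 CPM in DMSO and at 146 to 205 CPM with dTAG7, which overlap. SLC2A3, the glucose transporter GLUT3, was at 61.1, 49.5 and 42.8 CPM in DMSO and at 83.5, 72.0 and 69.0 CPM with dTAG7 (0.53, adjusted p = 0.023). CLK3, a kinase of splicing factors, SUN2, of the inner nuclear envelope, and H1FX, a linker histone, rose by 0.50, 0.39 and 0.34. Of the 6 fits that left out a library, SUN2 was called only without DMSO replicate B, CLK3 only without dTAG7 replicate A, SLC2A3 only without DMSO replicate A or dTAG7 replicate C, and H1FX only without DMSO replicate C, dTAG7 replicate A or dTAG7 replicate B. Their highest adjusted p in these fits were 0.24, 0.45, 0.51 and 0.46.

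On TMM scale, which sets libraries by the bulk of their genes and not by spike-ins, the 6-library fit called 32 genes (0.297%; 22 lower, 0.204%, and 10 higher, 0.0929%), among them all 17 of the spike-in fit. The scale itself moved little: the median over all genes was 0.007 on spike-in scale and -0.002 on TMM scale. MYB, the factor that maintains blood progenitors, was among the genes added. It was at 842, 838 and 811 CPM in DMSO and at 719, 697 and 720 CPM with dTAG7, without overlap, and its value was -0.22 ± 0.07 on spike-in scale (adjusted p = 0.29; TMM 0.034). NOP16, a ribosome biogenesis factor, and HSPA8, the constitutive HSC70 chaperone, were added with TMM values of -0.33 and -0.25, and PLEC, a cytoskeletal linker, and ANPEP with 0.51 and 0.41.

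Genes with the lowest p in the 66-library fit included others that the 6-library fit did not call. CCDC86, a nucleolar protein, was at 65.2, 56.3 and 58.1 CPM in DMSO and at 40.8, 39.1 and 43.7 CPM with dTAG7 (-0.54 ± 0.14; adjusted p = 0.068 in the 6-library fit). TRDMT1, a tRNA methyltransferase, went from 8.47, 7.56 and 8.45 CPM to 2.69, 4.69 and 2.80 CPM (-1.26 ± 0.33; adjusted p = 0.28 in the 6-library fit). TTC28, RAB39B and NPTX1 had values of -1.16, -1.17 and -0.83. On the higher side GAS7 (0.99 ± 0.29), FTCDNL1 (1.07 ± 0.34) and EPHB3 (0.62 ± 0.20) had arms without overlap. These values had adjusted p of 1 in the 66-library fit.

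The list of MYC and genes of ribosome biogenesis had values below 0 for 36 of its 38 members. Its median was -0.19, beside 0.01 over all genes tested. For the same genes in wild-type cells with dTAG7 the median was 0.09, beside 0.09 over all wild-type genes. On TMM scale the medians of the list were -0.20 in the MED1 line and -0.003 in wild-type cells. In the MED1 line the dTAG7 arm lay wholly below the DMSO arm for 20 of 38, against 5.3% of all genes, and wholly above it for 0. Of the members, 2 (MYC and LYAR) were called lower in the 6-library fit, beside 0.111% of all genes, and 0 in the 66-library fit; LYAR was called in 1 of the 6 fits that left out a library. PNO1, which places the small ribosomal subunit's assembly factors, was at 92.8, 74.1 and 67.6 CPM in DMSO and at 59.7, 49.5 and 64.5 CPM with dTAG7 (-0.44 ± 0.16). NOB1, the nuclease that trims the small subunit RNA, was at -0.32 ± 0.15 and NOP16 at -0.32 ± 0.16. The abundant nucleolar proteins were nearer 0: NCL at -0.12, FBL at -0.08 and NPM1 at -0.02. The values above 0 were those of BOP1 (0.03) and POLR1C (0.06).

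Blood transcription factors went both ways. Of 40 tested, 20 had a negative value and 20 a positive one (50.0% negative beside 48.5% of all genes), with a median of -0.01. The arms did not overlap for 6 lower and 2 higher members, against 5.3% and 6.26% of all genes. The 4 that fell in the 6-library fit, beside 0.111% of all genes, were MYC, SATB1, IKZF2 and BCL11A, and 0 rose. GATA2, the progenitor GATA factor, stood at 119, 114 and 108 CPM in DMSO and 107, 100.1 and 112 CPM with dTAG7, with overlapping arms (-0.10 ± 0.15). NFE2, a factor of the erythroid and megakaryocytic lineages, had the highest value in the list: 28.7, 34.4 and 31.0 CPM in DMSO and 45.3, 42.8 and 43.7 CPM with dTAG7, without overlap (0.49 ± 0.18; adjusted p = 0.29 in the 6-library fit). Of 30 erythroid and GATA1 target genes tested, 16 were negative and 13 positive with a median of -0.02, and 0 were called. GATA1 itself was near 5 CPM (-0.21 ± 0.45), too low for a fall of 2-fold to be excluded.

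Nuclear receptors and their partners, the best known contacts of MED1, gave few separated arms. Of 22 receptor genes tested 15 were negative, with a median of -0.07 beside 0.02 in wild-type cells on spike-in scale, where the median over all wild-type genes was 0.09. On TMM scale the medians were -0.08 and -0.07. The arms were apart for 2 lower and 1 higher receptor gene, near the 5.3% and 6.26% of all genes. PPARA, the fatty acid receptor, was at 28.4, 27.6 and 31.6 CPM in DMSO and at 20.7, 19.8 and 21.9 CPM with dTAG7, without overlap (-0.48 ± 0.19; adjusted p = 0.49 in the 6-library fit). Of 16 coactivators and corepressors 7 were negative and 9 positive. Among them 1, NRIP1, was called lower in the 6-library fit, beside 0.111% of all genes. The arms did not overlap for 2 lower and 1 higher of the 16, against 5.3% and 6.26% of all genes. Target genes of nuclear receptors (21 tested) had a median of 0.05, with 8 negative and 13 positive and 0 called. No nuclear receptor ligand is named in the labels.

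Immediate early genes lay to the higher side: 19 of 25 tested were positive, with a median of 0.17 beside 0.09 in wild-type cells. On TMM scale the medians were 0.17 and -0.01. The dTAG7 arm was wholly higher for 6 of 25, against 6.26% of all genes, and wholly lower for 0. DUSP6 was called in the 6-library fit. JUN, an AP-1 subunit, was at 7.73, 7.94 and 4.51 CPM in DMSO and at 12.1, 15.1 and 10.7 CPM with dTAG7 (0.86 ± 0.30; adjusted p = 0.37 in the 6-library fit). KLF6 had 0.34 ± 0.14 and DUSP4 0.60 ± 0.43, both without overlap. EGR1 was at 9.57, 6.05 and 5.64 CPM in DMSO and at 13.9, 5.74 and 14.0 CPM with dTAG7, so 1 dTAG7 well fell within the DMSO range (0.63 ± 0.37). FOSL1 went the other way at -0.53 ± 0.32.

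Smaller shifts were seen in other lists, with 0 members called in the 6-library fit on spike-in scale. Cholesterol genes were positive for 17 of 21 with a median of 0.11, beside 0.13 in wild-type cells on spike-in scale, and with medians of 0.09 and 0.05 on TMM scale. Heat shock and chaperone genes were negative for 15 of 20 with a median of -0.05, beside 0.07 in wild-type cells (-0.06 and -0.02 on TMM scale). Of 23 p53 targets 14 were positive, with a median of 0.07 beside 0.09 in wild-type cells (0.06 and 0.003 on TMM scale). Of these 23, 5 were wholly higher and 1 wholly lower, against 6.26% and 5.3% of all genes. BBC3, the death effector PUMA, was at 15.8, 16.6 and 11.8 CPM in DMSO and at 26.5, 22.9 and 17.4 CPM with dTAG7 (0.58 ± 0.23). The list of BCR-ABL, STAT5 and progenitor receptor genes had 6 negative and 14 positive values of 20 tested. Its median was 0.05, beside 0.03 in wild-type cells (0.04 and -0.06 on TMM scale). The arms did not overlap for 2 lower and 3 higher members, against 5.3% and 6.26% of all genes. Among these were 2 D-type cyclins, CCND2 at -0.45 ± 0.19 and CCND3 at 0.31 ± 0.10. Genes of the degrader machinery, among them those of the cereblon ligase and FKBP1A (14 tested), spanned -0.16 to 0.13. Of them 0 had separated arms, against 11.6% of all genes.

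**Figure D2:**
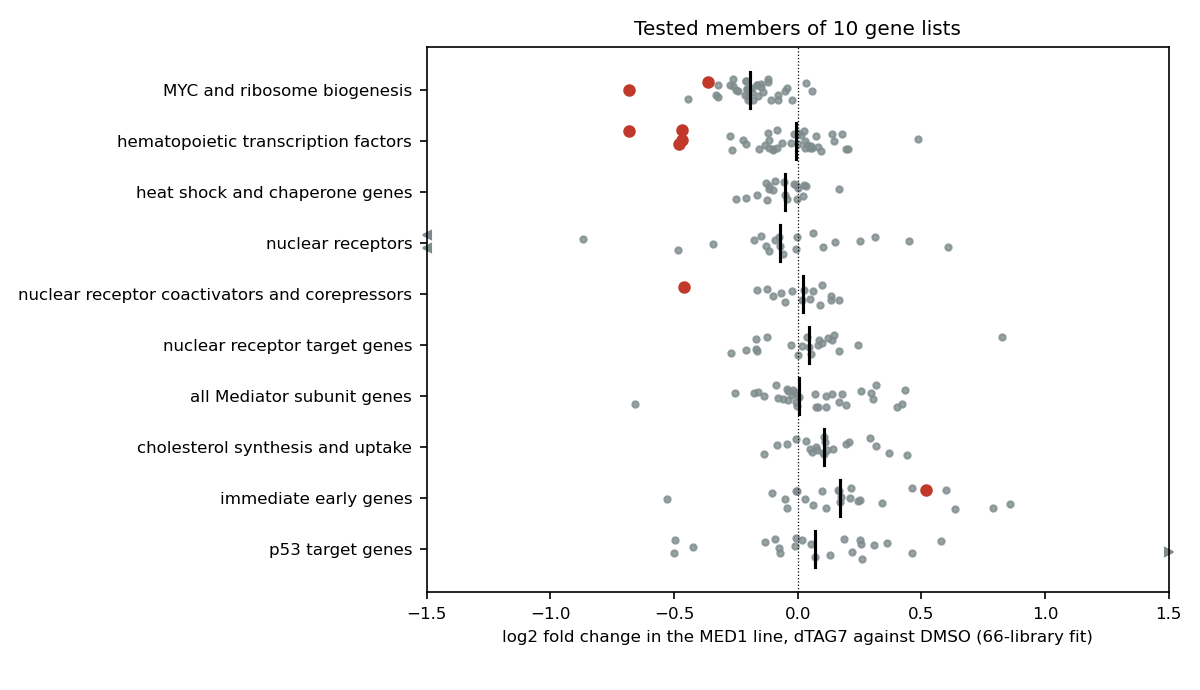
Log2 fold change in the MED1 line with dTAG7 against DMSO (horizontal axis) for each tested member of 10 lists; bars are medians, red dots were called in the fit on the 6 libraries, and triangles mark values beyond the axis. The MYC and ribosome biogenesis list lies to the left with 36 of 38 members below 0, and immediate early genes lie to the right with 19 of 25 above 0.

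Genes that depended on other Mediator subunits were shifted in the MED1 line too. In the 66-library fit, 706 genes were called lower in at least 4 of the 7 other Mediator lines, which share no library with the MED1 arms. Calls in those lines ran from 3.11% of genes in MED31 to 65.0% in MED14. In the MED1 line 522 of these 706 had a negative value (73.9%, beside 48.5% of all 12515 genes), with a median of -0.08 (quartiles -0.17 and 0.00). The same genes were negative in 16.3% in wild-type cells given dTAG7 (26.7% of all genes), with a median of 0.09. On TMM scale the set held 520 genes, of which 81.3% were negative in the MED1 line (50.5% of all genes; median -0.11) and 50.4% in wild-type cells. The dTAG7 arm was wholly below the DMSO arm for 18.4% of the 706, beside 5.3% of all genes, and in wild-type cells for 0.85%, beside 1.41%. Of the 12 genes that fell in the 6-library fit, 8 were in this set, which made up 6.54% of the genes tested in that fit. None of the shares in this comparison was matched for abundance.

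**Figure D3:**
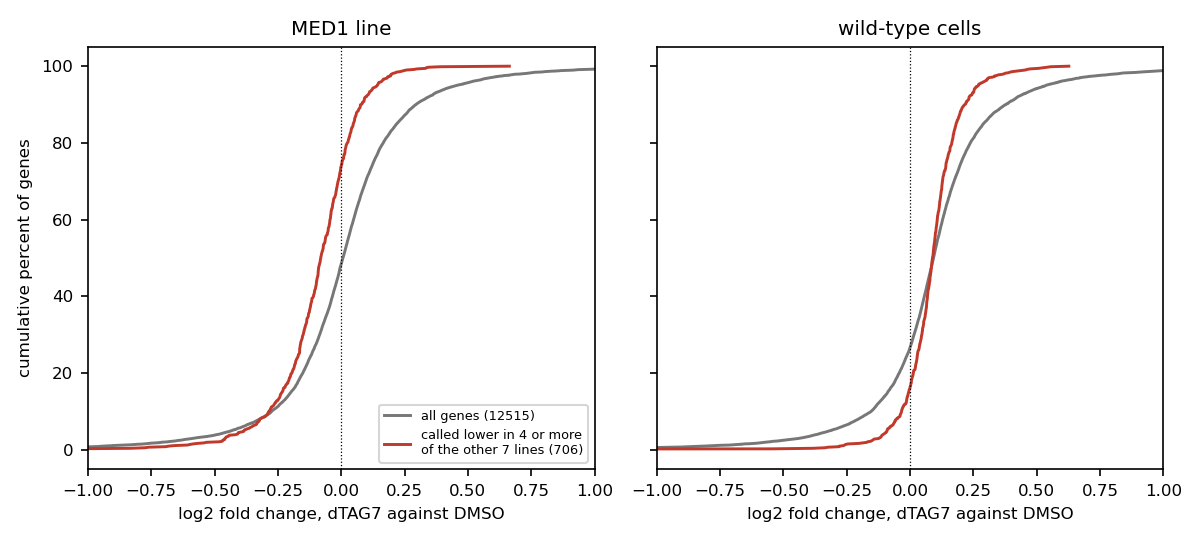
Cumulative share of genes (vertical axis, percent) by log2 fold change with dTAG7 (horizontal axis, shown from -1 to 1) in the MED1 line and in wild-type cells. The red curve of the 706 genes lies above that of all genes at 0 in the MED1 line (73.9% against 48.5% below 0) and under it in wild-type cells (16.3% against 26.7%).

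The genes called higher in at least 4 other Mediator lines numbered 40. In the MED1 line 11 of them were negative (27.5%, beside 48.5% of all genes), with a median of 0.16, and with dTAG7 in wild-type cells 12 were negative (30.0%, beside 26.7%), with a median of 0.06. On TMM scale the set held 192 genes, of which 18.8% were negative in the MED1 line (50.5% of all genes; median 0.12) and 43.8% in wild-type cells (49.9%; median 0.02). On spike-in scale the dTAG7 arm was wholly higher for 22.5% of the 40 genes, beside 6.26% of all genes, and in wild-type cells for 15%, beside 8.98%. HEXIM1, the inhibitor of the elongation kinase P-TEFb, was at 65.2, 44.6 and 56.4 CPM in DMSO and at 60.6, 69.4 and 62.2 CPM with dTAG7, with overlapping arms (0.21 ± 0.18). POLR2A, the largest subunit of RNA polymerase II, was at 556, 516 and 524 CPM in DMSO and at 600.1, 638 and 625 CPM with dTAG7, without overlap (0.22 ± 0.14; adjusted p = 0.31 in the 6-library fit). BRD2 was at -0.01 ± 0.16 and SMIM14 at 0.55 ± 0.36. A list of 16 genes known from these data to be lower in several other lines had 15 negative values and a median of -0.30, with 9 wholly lower against 5.3% of all genes. EGR1 was the exception. In wild-type cells the median of the list was 0.04. On TMM scale the medians were -0.31 in the MED1 line and -0.05 in wild-type cells.

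The 17 genes varied widely across the other lines. SATB1 was called lower in all 7 other Mediator lines, from -0.50 in MED26 to -1.55 in MED14, and its MED1 value of -0.48 stood beside those of MED26, MED31 (-0.53) and MED12 (-0.53). ANGPT1 was called lower in all 7 too, from -0.44 in MED26 to -3.03 in MED14. MYC was called lower in 5, reaching -4.19 in MED14 and -3.24 in MED10, while MED26 (-0.13) and MED31 (-0.58) were not called. Of the 12 genes that fell, 10 had a negative value in all 7 other lines. The share of all genes with such values was not counted. Calls of lower genes in those lines ran from 2.61% in MED31 to 63.3% in MED14. TXN had positive values in MED12 (0.23) and MED31 (0.29), and ALKAL2 in MED31 (1.17 ± 0.78). Of the genes that rose, SLC2A3 was called higher in 3 other lines (MED10 0.98, MED28 0.63 and MED12 0.57). DUSP6, H1FX and SUN2 were called lower in MED14, as were 63.3% of all genes tested there.

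**Figure D4:**
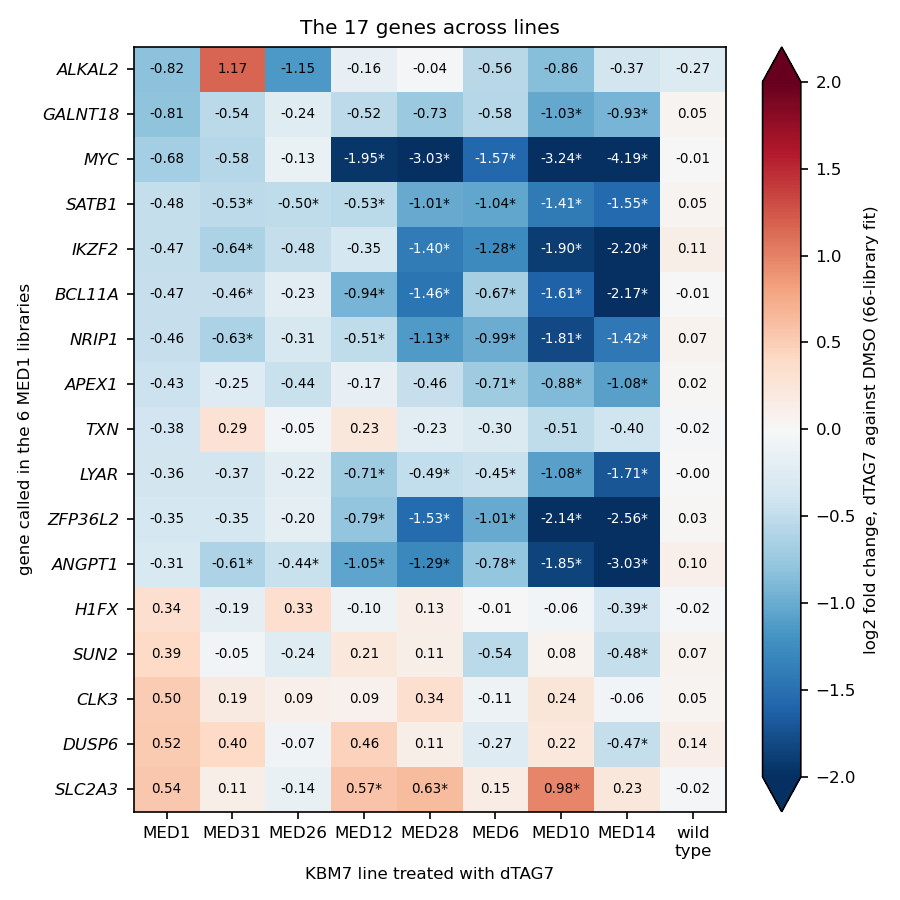
Log2 fold change with dTAG7 against DMSO for the 17 genes (rows) in each Mediator line and in wild-type cells (columns), from the 66-library fit; an asterisk marks an adjusted p under 0.05, and colours saturate at 2. MYC falls to -4.19 in MED14 and stands at -0.68 in MED1, and the wild-type column is near 0 for most genes.

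Whether the response differed from that of wild-type cells was asked with the difference between the dTAG7 effects. In wild-type cells dTAG7 changed 0 genes in the 66-library fit (edgeR; 490 at an unadjusted p under 0.05, 3.92%) and 0 on TMM scale or in their own 6 libraries. The median over all genes was 0.09 on spike-in scale in wild-type cells and 0.001 on TMM scale. The difference of effects passed for 0 of 12515 genes (background 0.0%; 412, or 3.29%, at an unadjusted p under 0.05; edgeR, DESeq2 and limma-voom 0), and for 0 of 11340 in a fit on these 12 libraries alone. For all 12 genes that fell, the MED1 value was lower than the wild-type one. In the 12-library fit SATB1 differed by -0.54 ± 0.12 (adjusted p = 0.77) and NRIP1 by -0.53 ± 0.15, BCL11A by -0.46 ± 0.13 and MYC by -0.68 ± 0.25 (adjusted p = 0.89 each). An unadjusted p under 0.05 was reached by 15 of the 17 genes there and by 9 of the 17 in the 66-library fit. Since the 17 were chosen by their change in the same MED1 libraries, these counts are a description only. The falls called within the MED1 line were thus not shown to differ from wild-type cells after adjustment.

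The sizes of change that the libraries exclude depend on abundance. In the 66-library fit the 95% interval of the log2 fold change lay within 2-fold in both directions for 9966 of 12515 genes (79.6%), within 1.5-fold for 6785 (54.2%) and within 1.2-fold for 589 (4.71%). Among 2949 genes at 100 CPM or more, 2948 were within 2-fold and 96.8% within 1.5-fold, and the median margin was 1.19-fold. At 20 to 100 CPM 99.4% of 4877 genes were within 2-fold and 74.9% within 1.5-fold. From 5 to 20 CPM 74.0% of 2773 were within 2-fold, and below 5 CPM 6.05% of 1916, where the median margin was 2.16-fold. In the 6-library fit 93.9% of 10767 genes were within 2-fold, 71.5% within 1.5-fold and 20.1% within 1.2-fold. The limits of that fit rest on 1 trend of spread over all genes, which gives 43068 degrees of freedom where the libraries themselves leave 4. At 20 CPM or more 0 estimates lay beyond 2-fold in either fit. The intervals hold gene by gene and are not widened for the number of genes. In the 66-library fit, 17 genes with an arm at 0 counts were not counted as within any of these limits.

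**Figure D5:**
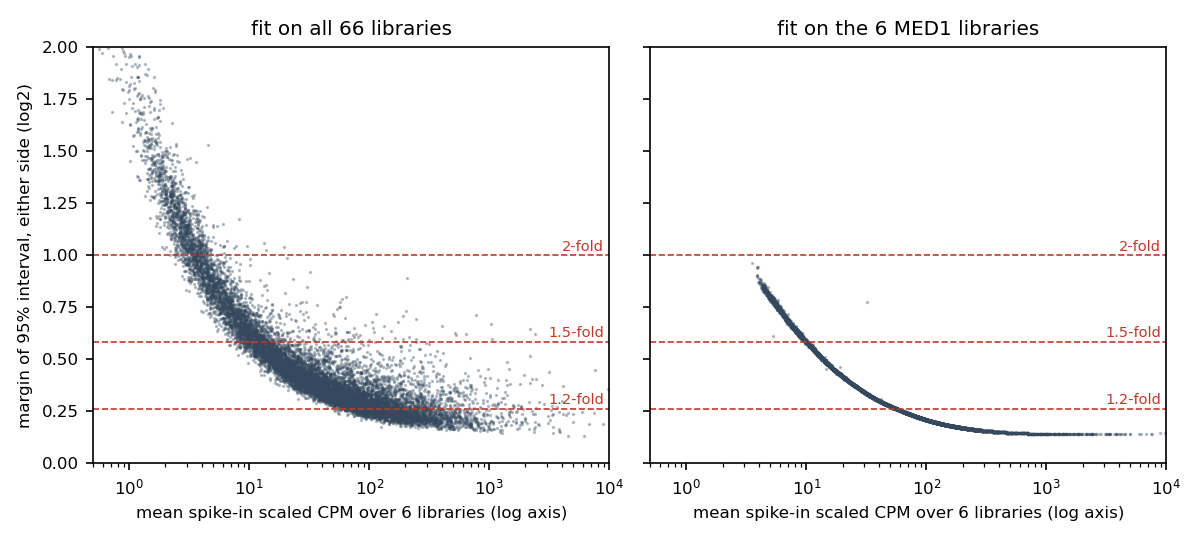
Margin of the 95% interval of the log2 fold change (vertical axis, log2) against mean spike-in scaled CPM (horizontal axis, log scale), each dot a gene, for both fits; dashed lines mark 2-, 1.5- and 1.2-fold. In the fit on the 6 libraries the dots form a single line, since the spread of each gene comes from the trend with abundance; genes at 100 CPM or more have a median margin of 1.19-fold in the 66-library fit and 1.13-fold in the 6-library fit.

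For the genes named above the limits can be read one by one. MED1 mRNA lay between -0.30 and 0.22 on the log2 scale, HEXIM1 between -0.15 and 0.57, POLR2A between -0.06 and 0.50, and GATA2 between -0.39 and 0.20. For MYC the 66-library interval ran from -1.25 to -0.11, so that a fall of the size seen in MED10 or MED14 lies outside it. The SATB1 interval was -0.72 to -0.25, that of BCL11A -0.71 to -0.22 and that of NRIP1 -0.73 to -0.19.

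The effect was tested against that of 3 other lines. Against MED10, another middle-module subunit, 831 of 12515 genes differed (6.64%), with 791 higher in the MED1 line (6.32%) and 40 lower (0.32%). On TMM scale the split was 357 higher and 154 lower, and without MED10 dTAG7 replicate A 549 genes differed. MYB was at -0.22 ± 0.11 in MED1 and at -1.85 ± 0.11 in MED10 (difference 1.63 ± 0.15, adjusted p = 1.38e-11). ANGPT1 differed by 1.54 ± 0.17 and CD3EAP, a subunit of RNA polymerase I, by 1.61 ± 0.18. On the other side HEXIM1 rose to 1.57 ± 0.17 in MED10 (difference -1.36 ± 0.24, adjusted p = 0.00013) and BRD2, a BET protein, to 0.96 ± 0.15 (difference -0.96 ± 0.22). SERTAD1 and SMIM14 differed by -1.32 ± 0.29 and -2.22 ± 0.51.

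Against MED26, which links Mediator to elongation factors, 53 genes differed (0.423%), 49 higher in the MED1 line (0.392%) and 4 lower (0.032%). On TMM scale the split was 30 higher and 8 lower. The count fell to between 21 and 34 when any of MED1 DMSO replicates B or C, MED1 dTAG7 replicates A, B or C, MED26 DMSO replicate C or MED26 dTAG7 replicates A, B or C was left out. KAT5, the acetyltransferase TIP60, was at -0.16 ± 0.13 in MED1 and at -1.33 ± 0.14 in MED26 (difference 1.17 ± 0.19, adjusted p = 0.00038). HNRNPDL, SLA, PBRM1 and SPIN1 were likewise lower in MED26, by 0.90 ± 0.15, 1.74 ± 0.29, 0.81 ± 0.14 and 1.18 ± 0.20. POLR2A rose by 1.26 ± 0.14 in MED26, against 0.22 ± 0.14 in MED1 (difference -1.03 ± 0.20, adjusted p = 0.0025), and HEXIM1 differed by -1.34 ± 0.25.

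Against MED31, a further middle-module subunit, 2 genes differed (0.016%; 1 in each direction, 0.00799%) in the 66-library fit, although 831 (6.64%) had an unadjusted p under 0.05. POLR2A was higher in MED31 (1.22 ± 0.14; difference -0.99 ± 0.20, adjusted p = 0.031). HMOX1, the heme-degrading enzyme, was at 0.32 ± 0.23 in MED1 and at -1.22 ± 0.18 in MED31 (difference 1.54 ± 0.29, adjusted p = 0.018). DESeq2 called 42 genes and TMM scale 19, and leaving out single libraries gave 0 to 4. The count was 0 without MED1 DMSO replicate B, MED1 dTAG7 replicates B or C, MED31 DMSO replicate B or MED31 dTAG7 replicate C. It was 1 without MED1 DMSO replicates A or C, MED1 dTAG7 replicate A, MED31 DMSO replicate C or MED31 dTAG7 replicate B, and 4 without MED31 dTAG7 replicate A.

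The MED1 line differed from wild-type cells before any dTAG7. In DMSO 25 genes were higher (0.2%) and 26 lower (0.208%) than in wild-type cells, out of 12515, a comparison that shares its DMSO libraries with the main one. Without MED1 DMSO replicate A the count was 33 and without wild-type DMSO replicate A it was 30. ALKAL2, which fell with dTAG7, was at 29.8, 29.5 and 25.4 CPM in the MED1 line and at 2.51, 1.75 and 0.803 CPM in wild-type cells (4.05 ± 0.39, adjusted p = 8.6e-11). Its fall therefore has almost no wild-type level to be set against. RHAG, an erythroid membrane protein, and CD84, a surface receptor of blood cells, were higher by 1.98 ± 0.31 and 1.72 ± 0.25. MPPED2, EMP1 and GPM6A were lower, at -3.14 ± 0.35, -1.61 ± 0.25 and -3.07 ± 0.55. Of the other genes that fell with dTAG7, MYC, SATB1, NRIP1, IKZF2 and BCL11A had baseline differences of -0.22, 0.27, 0.41, 0.18 and 0.07, none of them called.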

How the data were processed

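Per the labels' protocols, RNA from KBM7 cells was made into 3' mRNA libraries (QuantSeq) with equal amounts of synthetic spike-in RNA added to each lysate, and sequenced as single reads. The authors deposited whole-number read counts per gene and spike-in for 66 libraries (13331 genes, 44 spike-in entries) and a table of loess-normalized signal values, used here as log2(value + 1). STAR 2.5.2b, HTSeq 0.6.0, bedtools 2.26.0 and the build hg38 are listed in the submitters' processing notes, without roles. Gene names and coordinates came from GENCODE release 29.

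The count test was edgeR 4.0.16 (glmQLFit, glmQLFTest; R 4.3.3) over all 66 libraries with 1 term per group, library sizes set by summed spike-in counts, genes kept by filterByExpr, and Benjamini-Hochberg adjustment at 0.05. CPM are scaled by spike-ins. The same model was fitted to the 6 MED1 libraries alone. SE are from the fit, and intervals use its total degrees of freedom, residual plus prior (median 59.6 over 66 libraries and 43068 in the 6). Replicates differed by more than sampling noise. Alternatives were TMM, median-of-ratios factors, other filters, a replicate block, limma-voom 3.58.1, DESeq2 1.42.0, limma on the loess values, and leaving out each library. The scripts were tested on simulated counts. Genes named were the 10 of lowest p in each direction among those at 5 CPM or more without overlap of the arms, those called in the 6 libraries, Mediator subunits, the genes known from other lines, up to 3 members of lowest p in each direction of each list, and the 5 leading genes of each other comparison. DUSP4, FBL, NCL, NOB1 and NPM1 were named after their values were seen. The gene lists and members were chosen with earlier results of these data known.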

Additional observations from a re-analysis of the deposited data

Results flagged for a closer look

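The effect of dTAG7 differed between the MED1 line and 3 other Mediator lines by a test of the difference itself. Against MED10, 791 genes were higher and 40 lower in the MED1 line, against MED26 49 were higher and 4 lower, and against MED31 1 was higher and 1 lower. The pair that differed from MED31 was POLR2A, with a difference of -0.99, and HMOX1, with 1.54. On TMM scale the split against MED10 was 357 higher and 154 lower. Leaving out single libraries moved the MED31 count to between 0 and 4.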

How the results depend on the processing

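The count of 0 changed genes in the MED1 line held without a filter, at a mean of at least 5 CPM, with DESeq2, limma-voom and limma on loess values, and without each library; it became 1 with TMM or median-of-ratios factors, and 17, 32 (TMM) and 15 (replicate block) in the 6 libraries alone. In those 6 libraries the 17 genes became 32 with TMM or median-of-ratios factors, 6 with DESeq2 and 7 to 14 without single libraries, alternatives added after the data were seen. LYAR and ALKAL2 were lost there with a replicate block (adjusted p = 0.057 each). The difference from wild-type cells gave 0 genes in each alternative. Against MED10 the 831 genes became 511 (TMM), 518 (median-of-ratios), 2134 (only the libraries compared), 2074 (these with a replicate block) and 549 to 878 without single libraries. Against MED26 the 53 became 93 (DESeq2), 292 (only the libraries compared), 229 (these with a replicate block) and 21 to 42 without single libraries. Against MED31 the 2 became 19 (TMM, median-of-ratios), 9 (mean of at least 5 CPM), 42 (DESeq2), 22 (limma-voom), 44, 38 (TMM) and 33 (replicate block) in only the libraries compared, and 0 to 4 without single libraries. The baseline count of 51 became 86 in only the libraries compared with TMM, and 30 to 51 without single libraries. The ratio of gene to spike-in counts ranged from -0.0093 to 0.051 without single libraries, being -0.0093, -0.0083 and -0.00045 without DMSO replicate B, DMSO replicate C and dTAG7 replicate C. The genes within 2-fold numbered 8954 with 99% intervals and 9391 to 9584 without single libraries. The cause of these differences was not tested, beyond that fewer libraries or genes enter some fits.

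The replicate letters were not used to pair wells, since same-letter correlations of deviations were 0.020, 0.020 and 0.060 over 7826 genes. With a replicate block over all 66 libraries the counts were 0 for MED1, 0 for the difference from wild-type cells, 789 against MED10, 44 against MED26, 2 against MED31 and 53 at baseline. DMSO replicate B correlated best with dTAG7 replicate A, so not every well correlated best with its own letter. Depth limits the genes under 5 CPM most.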

Other observations

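Genes of other functions were shifted slightly in the MED1 line, with 0 called on spike-in scale. The mitochondrially encoded genes had 24 negative values of 30 tested and a median of -0.08, beside 0.18 in wild-type cells (-0.09 and 0.08 on TMM scale), and 1 was wholly lower, against 5.3% of all genes. On spike-in scale the median over all wild-type genes was 0.09. Genes of fatty acid oxidation and the respiratory chain had 19 positive values of 27 (median 0.05, beside 0.07 in wild-type cells; 0.04 and -0.02 on TMM scale) with 5 wholly higher, against 6.26% of all genes. Of 23 genes of G2 and mitosis 16 were positive, with a median of 0.06 beside 0.10 in wild-type cells (0.05 and 0.01 on TMM scale), and 6 were wholly higher. The share of all genes wholly higher was 6.26%. AURKA, the spindle pole kinase, was at 0.27 ± 0.13 and TOP2A, the mitotic topoisomerase, at 0.19 ± 0.11. Genes of DNA replication had 17 of 24 positive, with a median of 0.04 beside 0.10 in wild-type cells (0.03 and 0.01 on TMM scale). Of these 24, 1 was wholly higher, against 6.26% of all genes.

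Among baseline differences, the neighbouring genes E4F1 and DNASE1L2 on chromosome 16 went opposite ways. E4F1 (chr16:2223566-2235742, plus strand) was at 8.10, 8.32 and 5.07 CPM in the MED1 line and at 32.2, 38.5 and 37.8 CPM in wild-type cells. DNASE1L2 (chr16:2235816-2238711, same strand) was at 29.4, 23.4 and 30.4 CPM in the MED1 line and at 4.18, 3.50 and 6.03 CPM in wild-type cells. Both differed between the lines (-2.28 ± 0.28 and 2.55 ± 0.32). With dTAG7 in the MED1 line they were at 0.22 ± 0.35 and 0.21 ± 0.25.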
